A study of Mus musculus with 8 samples.

Results

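Macrophage identity genes encode the transcription factors, growth factor receptors, surface proteins and microbicidal enzymes by which a macrophage is recognised. A set of 37 such genes was selected by symbol from the 22063 genes of the deposited expression table. The set held 7 lineage factors (Spi1, Cebpa, Maf, Irf8, Irf5, Runx1 and Fli1), 3 growth factor receptor genes (Csf1r, Csf2ra and Csf2rb) and 10 pan-macrophage and adhesion markers (Lyz2, Adgre1, Itgam, Itgb2, Cd14, Cd86, Ptprc, Aif1, Lgals3 and Mpeg1). It also held 4 NADPH oxidase genes (Cybb, Cyba, Ncf1 and Ncf4), 3 monocyte markers (Cx3cr1, Ccr2 and Ly6c2), 4 Kupffer cell markers (Clec4f, Vsig4, Timd4 and Marco) and 6 markers of other tissue macrophages (Mrc1, Cd163, Siglec1, C1qa, C1qb and C1qc). Each symbol matched a row of the table.

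The study addressed tranilast, an anti-allergic drug derived from a tryptophan metabolite, in mice fed a high-fat and high-cholesterol (HFHC) diet, a model of nonalcoholic steatohepatitis. Poly-A RNA-seq was available for 8 libraries that the labels call WT liver, 4 of them Control and 4 Control+tranilast, and the series design places both groups on the HFHC diet. The animal methods describe male C57BL/6J mice and gavage with vehicle or tranilast, but the labels state neither the dose nor the age of the mice behind these libraries. The labels also do not say whether each library came from a separate animal, so every p-value below measures the spread between libraries, which may be technical. The 2 groups are called control and tranilast here.

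Macrophage identity is established by the ETS-family factor PU.1, the product of Spi1, acting with C/EBP, IRF and RUNX factors, and it is maintained by signalling through the CSF1 receptor. Monocytes that enter a tissue carry chemokine receptors such as CCR2 and the surface antigen Ly6C. Resident macrophages then acquire tissue-specific proteins, which in Kupffer cells, the macrophages of liver sinusoids, include the lectin CLEC4F, the complement receptor VSIG4 and the phosphatidylserine receptor TIM4. A liver RNA sample would ordinarily hold these transcripts beside a large excess of hepatocyte transcripts.

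Library totals ranged from 12053036 to 15618787 estimated counts, with 10770 genes tested, and a limit of 3 counts per library corresponded to 0.192 to 0.249 CPM (counts scaled to library size). The tissue label was checked against marker lists. The macrophage list held 8 members of the gene set above, which was chosen with earlier results of these data known. Members at or near 0, such as Cd163 (0 counts in every library) and Mrc1 (at most 3), were not on it. Detection of the listed genes therefore shows that these transcripts were present, but it could not itself test the label. All 8 macrophage markers on the list (Spi1, Csf1r, Lyz2, Adgre1, Itgam, Ptprc, Mpeg1 and Cybb) exceeded 3 counts in every library, and together they took 0.912 to 0.957% of counts in the control libraries and 0.892 to 0.949% in the tranilast libraries. The 9 hepatocyte markers together took 0 to 1.30e-04% and 0 to 1.91e-04% of counts, with Serpina1a, Cyp3a11 and Hnf4a at 0 in all 8 libraries, Alb at 0 to 2 counts and Ttr at 0 to 17 counts. The liver label therefore went against the hepatocyte markers, and the libraries are described below by their group names alone. Marker lists for liver endothelium, stellate cells, cholangiocytes, T, B and NK cells, dendritic cells, mast cells, erythroid cells and adipocytes each took at most 3.88e-04% of counts in any library. The neutrophil list took 4.29e-04 to 5.69e-04% in the control libraries and 6.97e-04 to 9.21e-04% in the tranilast libraries, led by Csf3r with 63 to 128 counts, while its defining markers S100a9 and Mpo were at 0. In bulk RNA of this kind, fewer cells of a type and less RNA per cell cannot be told apart.

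Promoter sequences show what lies in front of some genes that were detected and some at or near 0. RefSeq promoters (mouse build GRCm38.p6, the 250 bases upstream of a transcription start) were matched by symbol for 25 of the 37 genes, 16 of them among the tested genes. The 4 below were chosen after their levels were known, as a pair of detected genes followed by a pair at or near 0. Itgam and Mpeg1 ranked 13 and 12 in level among the 37 genes. Itgam lies at chr7:128062390-128062639 on the plus strand, Mpeg1 at chr19:12460520-12460769 on the plus strand, Vsig4 at chrX:96293439-96293688 on the minus strand and Marco at chr1:120505025-120505274 on the minus strand. Capitals mark GAGGAA, the purine-rich core of PU.1 motifs, or its reverse complement, and each sequence is read 5′ to 3′ on the strand of the gene.
Itgam: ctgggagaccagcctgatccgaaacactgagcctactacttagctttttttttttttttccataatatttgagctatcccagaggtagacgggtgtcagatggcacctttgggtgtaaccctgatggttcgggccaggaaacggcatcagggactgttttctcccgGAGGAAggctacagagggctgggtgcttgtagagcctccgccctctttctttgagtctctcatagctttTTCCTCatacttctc
Mpeg1: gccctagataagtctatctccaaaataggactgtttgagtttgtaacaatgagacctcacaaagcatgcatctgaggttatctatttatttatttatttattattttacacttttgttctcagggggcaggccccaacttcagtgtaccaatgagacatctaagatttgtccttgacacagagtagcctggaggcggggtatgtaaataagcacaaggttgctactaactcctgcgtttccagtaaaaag
Vsig4: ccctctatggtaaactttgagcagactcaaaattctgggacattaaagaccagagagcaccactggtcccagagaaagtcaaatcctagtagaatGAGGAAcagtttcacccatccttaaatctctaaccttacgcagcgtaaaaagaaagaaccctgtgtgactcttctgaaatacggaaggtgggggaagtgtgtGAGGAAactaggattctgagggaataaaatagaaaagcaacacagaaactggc
Marco: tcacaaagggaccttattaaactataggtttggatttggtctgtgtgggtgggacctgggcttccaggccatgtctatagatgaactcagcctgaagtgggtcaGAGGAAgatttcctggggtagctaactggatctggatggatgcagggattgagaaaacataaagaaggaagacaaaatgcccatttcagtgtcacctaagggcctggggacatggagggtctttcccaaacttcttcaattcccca
Itgam and Vsig4 each held 2 matches, Marco held 1 and Mpeg1 held none. Among promoters not shown, those of Lyz2 and Lgals3, both at higher levels, held none. Those of Clec4f, Timd4 and Cd163, genes at 0, held none either. Over all matched genes, GAGGAA on either strand was found for 5 of the 16 tested genes (Aif1, Csf2ra, Itgam, Ptprc and Runx1) and for 6 of the 9 genes that were not tested (C1qb, C1qc, Ly6c2, Marco, Mrc1 and Vsig4). The same letters occurred in 23.3% of 32851 promoters of this length. That share counts single promoters, whereas a gene counted as matched if any of its promoters held the letters. The RUNX core TGTGGT was found for 3 of the 16 (Cx3cr1, Cybb and Lyz2) and 2 of the 9 (C1qc and Ly6c2), against 4614 of the 32851 promoters. The C/EBP motif TTGCNNAA was found for 0 of the 16 and 0 of the 9, against 9.56% of all promoters. Both strands were searched for each motif. These matches are descriptions of sequence only.

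The 37 genes fell into a broadly expressed group and a group at or near 0. Levels are compared between genes as FPKM (fragments per kilobase of transcript, scaled to library size), because this unit corrects for transcript length. Lyz2, the lysozyme gene of myeloid cells, was the highest, with a mean of 3273 FPKM over the 8 libraries and rank 10 among all 22063 genes. Csf1r, the receptor for CSF1 and IL-34, followed at 917 FPKM (rank 62), then the endotoxin co-receptor gene Cd14 at 851 FPKM (rank 68) and Lgals3, encoding the galactose-binding lectin galectin-3, at 629 FPKM (rank 101). Neighbouring levels were not always separated, since the per-library FPKM of Csf1r ran from 879 to 972 and that of Cd14 from 817 to 884. The next 3 genes, Cybb, Ncf1 and Cyba, had means of 233, 224 and 222 FPKM, and their libraries overlapped in range. Spi1 lay at 175 FPKM, Cx3cr1 at 144, Irf5 at 111 and Itgb2 at 110.1.

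Lower in the order came Mpeg1, Itgam, Ncf4 and Ptprc, with means of 90.3, 88.5, 79.9 and 65.0 FPKM. Irf8 and Csf2ra had means of 34.8 and 34.8 FPKM. Runx1, Adgre1, Fli1, Cebpa and Csf2rb lay between 20.1 and 11.5 FPKM. Siglec1 reached 5.20 FPKM, Aif1 1.45 and Ccr2 1.16. Adgre1 encodes F4/80, the antigen by which mouse macrophages are most often stained, and it ranked 4245 in the table. All 37 genes together took 1.36 to 1.41% of counts in the control libraries and 1.32 to 1.39% in the tranilast libraries.

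**Figure D1:**
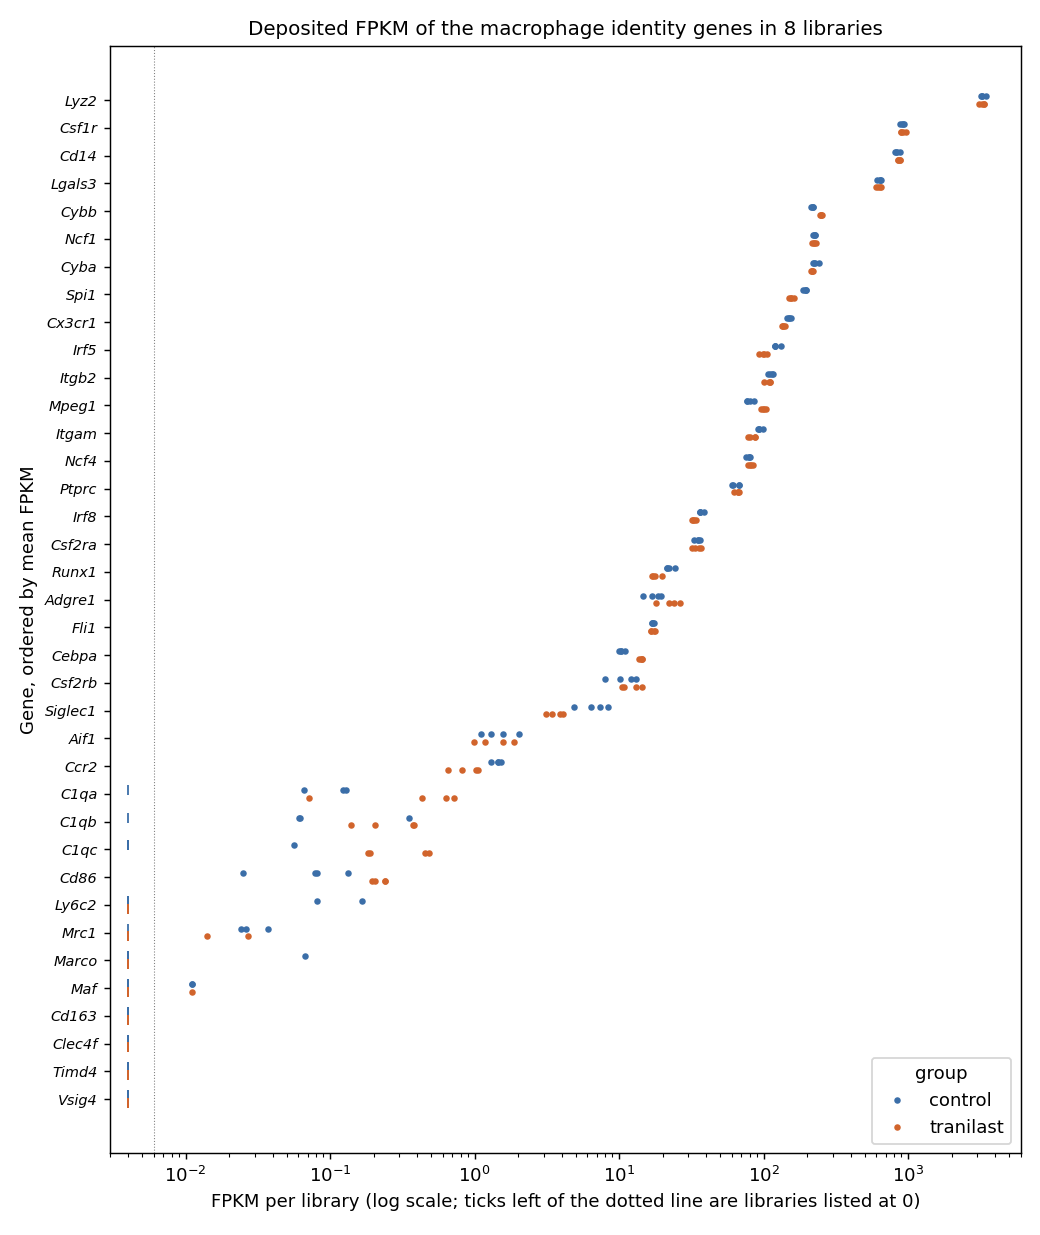
Deposited FPKM of the 37 genes (vertical axis, ordered by mean FPKM) on a log scale, with 1 point per library in blue for the 4 control and in orange for the 4 tranilast libraries, and libraries listed at 0 drawn as ticks left of the dotted line. The genes run from Lyz2, with a mean of 3273 FPKM, down to Cd163, Clec4f, Timd4 and Vsig4, which were at 0 in all 8 libraries.

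Of the 37 genes, 12 did not pass the expression filter. In the whole table, 10770 of 22063 genes passed it. Clec4f, Vsig4, Timd4 and Cd163 had 0 counts in all 8 libraries, Maf, Ly6c2, Marco and Mrc1 had at most 1 to 3 counts in any library, and Cd86, C1qa, C1qb and C1qc exceeded 3 counts in some libraries without passing the filter. With 0 counts the floor of 3 counts per library applies, which is at most 0.249 CPM, and it covers counting error only, as reads here carried no molecular identifiers. The 4 Kupffer cell markers were all in this group.

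The comparison of tranilast with control libraries asks how treatment moved these genes. Among the 25 genes tested, 22 were called at an adjusted p under 0.05 (edgeR quasi-likelihood test with Benjamini-Hochberg adjustment over all 10770 genes), against 57.0% of all genes tested. Cebpa, Adgre1, Mpeg1 and Cybb, 4 genes, were called higher with tranilast, where 28.2% of all tested genes were. The other 18 called genes were lower, where 28.8% of all tested genes were. Fli1, Aif1 and Ncf4 were not called. The libraries of the 2 groups did not overlap in scaled CPM for 20 of the 25 genes, against 49.8% of all tested genes. In FPKM they did not overlap for 12 of the 25, against 47.3%.

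Most of these differences were small, as they were over all tested genes. The median absolute log2 fold change was 0.203 over the 25 genes and 0.209 over all tested genes. The signed median over the 25 genes was -0.16, against 0.01 over all tested genes. Only Siglec1 and Ccr2 among the tested members were called with a change of at least 0.5 on the log2 scale, as 15.2% of all tested genes were. No member reached 1.5 on that scale, where 1.11% of all tested genes were called. How the libraries were scaled bears on these directions. The main scaling, TMM (trimmed mean of M-values), gave factors of 0.956 to 0.965 for the control and 1.04 for each of the tranilast libraries. Without those factors, the signed median over all tested genes moved up by 0.12 on the log2 scale. The members called lower went from 18 to 9 while the 4 called higher stayed at 4. On the deposited FPKM (limma, log2 of FPKM plus 0.1) the same median moved up by 0.11, with 4 members called higher and 8 lower. Across all tested genes, the share of called genes that were higher was 49.5% with TMM, 70.9% by library size alone and 70.4% in FPKM. The calls of 12 genes held under each of the 19 alternative settings that refitted the gene: Spi1, Irf5, Runx1, Irf8, Cebpa, Itgam, Cx3cr1, Ccr2, Siglec1, Adgre1, Mpeg1 and Cybb.

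**Figure D2:**
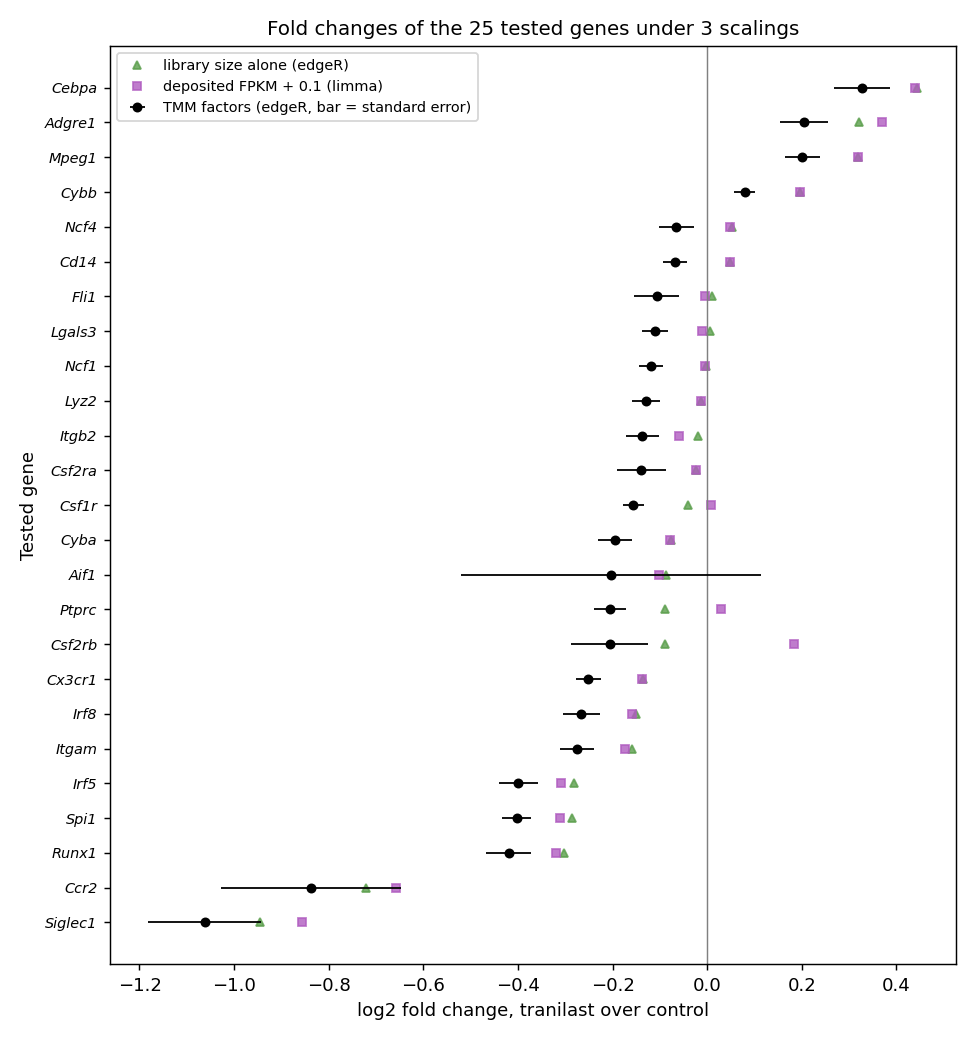
Log2 fold change of tranilast over control (horizontal axis) for the 25 tested genes. Black points with bars are the TMM-scaled edgeR estimates ± standard error, green triangles the estimates by library size alone and purple squares those from the deposited FPKM plus 0.1 by limma; the green and purple marks sit to the right of the black ones for every gene, and 12 genes keep their sign and call throughout.

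Of the 6 tested lineage factors, 4 were called lower and 1 higher with TMM. Over all tested genes these shares were 28.8% and 28.2%. Spi1 (chr2:91082390-91115756 in GRCm38, plus strand), which encodes PU.1, had scaled CPM of 361, 362, 380.2 and 354 in the control libraries and 278, 283, 275 and 266 in the tranilast libraries. The 4 tranilast values all lay under the 4 control values. The log2 fold change was -0.40 (edgeR, SE 0.0307, adjusted p = 3.2e-09), and the FPKM means went from 194 ± 5.61 to 156 ± 5.30 (SD, n = 4 libraries a group). Irf5, a factor that carries Toll-like receptor signals to inflammatory genes, had scaled CPM of 261, 268, 292 and 269 in the control libraries and 207, 219, 209 and 192 in the tranilast libraries. These groups did not overlap either, and the log2 fold change was -0.40 (edgeR, SE 0.0416, adjusted p = 2.1e-07). For Runx1, a factor needed for blood stem cell formation that partners PU.1, scaled CPM were 79.3, 74.0, 75.5 and 71.1 in the control libraries and 58.4, 56.6, 54.8 and 54.4 in the tranilast libraries. The log2 fold change of Runx1 was -0.42 (edgeR, SE 0.0469, adjusted p = 5.1e-07), again with no overlap between groups. The last of the 4, Irf8, a factor required for monocyte and dendritic cell development, had scaled CPM of 107, 111, 106 and 107 in the control libraries and 87.9, 87.2, 93.7 and 89.5 in the tranilast libraries. It differed by -0.27 on the log2 scale (edgeR, SE 0.039, adjusted p = 1.3e-05), without overlap.

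Cebpa (chr7:35119293-35121928 in GRCm38, plus strand), which encodes the C/EBPα factor of early myeloid commitment, moved the other way. Its scaled CPM were 26.9, 28.3, 28.3 and 30.1 in the control libraries and 36.3, 35.8, 34.3 and 36.1 in the tranilast libraries. All 4 tranilast libraries exceeded all 4 control libraries, with a log2 fold change of 0.33 (edgeR, SE 0.0594, adjusted p = 0.00013). In FPKM its means went from 10.4 ± 0.445 to 14.2 ± 0.358 (SD, n = 4 a group). Fli1, an ETS-family factor related to PU.1, had scaled CPM of 58.4, 60.0, 56.6 and 60.2 in the control libraries and 57.0, 53.1, 55.5 and 52.9 in the tranilast libraries. Its groups overlapped and it was not called at -0.11 (edgeR, SE 0.0467, adjusted p = 0.0587), with an estimate of 0.01 by library size alone. Maf, which encodes c-MAF and is a factor of resident macrophages, had 1, 0, 0 and 1 counts in the control libraries and 0, 0, 0 and 1 in the tranilast libraries. Cebpa, Irf5, Runx1, Maf, Csf1r, Ncf1 and Cx3cr1 have exons that overlap an annotated gene on the opposite strand, and whether counting used the strand is not given in the sources used here.

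**Figure D3:**
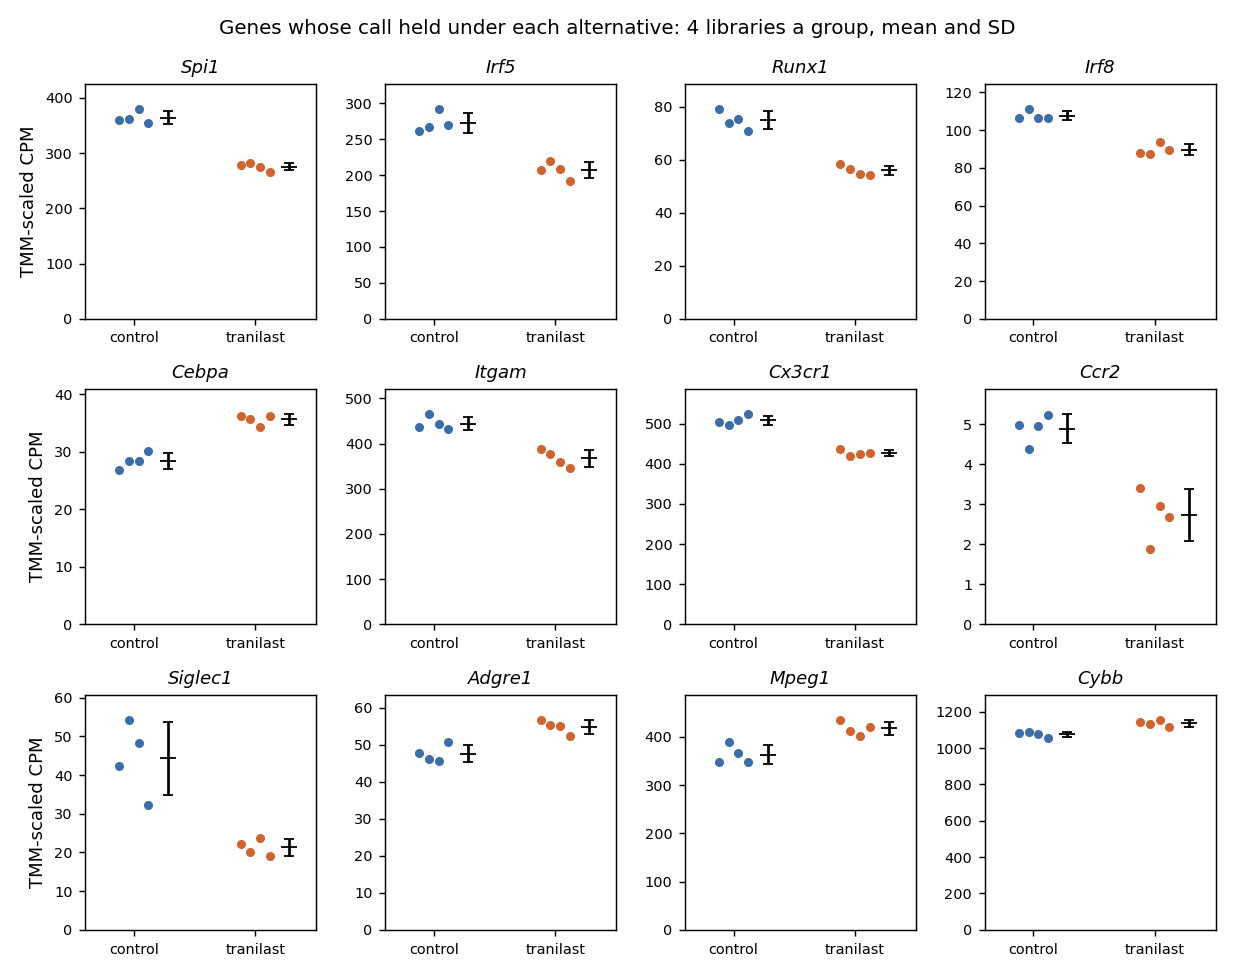
TMM-scaled CPM (vertical axes, from 0) of 12 genes in the 4 control and 4 tranilast libraries, with a point per library and the mean ± SD beside each group. Spi1, Irf5, Runx1, Irf8, Itgam, Cx3cr1, Ccr2 and Siglec1 are lower in every tranilast library than in any control library, and Cebpa, Adgre1, Mpeg1 and Cybb are higher.

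Other transcription factors of the macrophage lineage were evenly divided with TMM, much as were all tested genes (3039 called higher and 3104 lower). Of 30 such genes in the table, 24 were tested, 9 were called higher and 9 lower, with a median log2 fold change of 0.02. By library size alone the split was 11 higher and 6 lower, against 4613 and 1893 over all tested genes. The most abundant were Cebpb, at 62.3 FPKM in control and 87.0 in tranilast libraries (log2 0.37), Zeb2, at 45.2 and 55.8 FPKM (log2 0.24), and Ikzf1, at 41.7 and 32.9 FPKM (log2 -0.37). The largest changes belonged to Irf4 (log2 0.92), Id1 (log2 -0.84), Nr1h3, the LXRα gene (log2 0.72), and Tal1 (log2 -0.70). The adjusted p of each of these 7 genes was at most 0.0137 under each of the 5 scalings compared. Gata6, the factor of peritoneal macrophages, and Myb, a factor of haematopoietic progenitors, were at 0 in all 8 libraries, and Spic, the factor of iron-recycling macrophages, had at most 1 count.

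Csf1r and the receptor chains for GM-CSF were all called lower with TMM, as 28.8% of all tested genes were. None of these receptor genes was called by library size alone. Csf1r had scaled CPM of 2550.0, 2568, 2567 and 2586 in the control libraries and 2347, 2285, 2373 and 2213 in the tranilast libraries. The groups did not overlap on this scale, and the log2 fold change was -0.16 (edgeR, SE 0.0215, adjusted p = 6.8e-06). In FPKM the groups overlapped, with means from 914 ± 26.8 to 919 ± 38.2 (SD, n = 4 a group), and the estimate was 0.01. Csf2ra, the ligand-binding chain of the GM-CSF receptor, had scaled CPM of 67.5, 70.6, 68.1 and 63.9 in the control libraries and 59.4, 65.6, 63.8 and 56.6 in the tranilast libraries. Its groups overlapped, and the log2 fold change of -0.14 (edgeR, SE 0.0523, adjusted p = 0.0301) was not called without control replicate 2 or 3 or tranilast replicate 1 or 4, where the largest adjusted p was 0.139.

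The reads of Csf2rb have a close paralog to be read beside. Csf2rb (chr15:78325752-78353847 in GRCm38, plus strand) encodes the common beta chain shared by the receptors for GM-CSF, IL-3 and IL-5, and Csf2rb2 (chr15:78282507-78305721, minus strand) encodes the mouse IL-3-specific beta chain. Of the 75-base words in their annotated transcripts, 9.97% of those of Csf2rb and 10.9% of those of Csf2rb2 were shared. Csf2rb counts were 481, 573, 498 and 462 in the control libraries and 364, 454, 407 and 458 in the tranilast libraries, with overlapping groups in scaled CPM and a log2 fold change of -0.21 (edgeR, SE 0.0814, adjusted p = 0.0385). This call was lost without control replicate 1 or 2 or tranilast replicate 1 or 4, with adjusted p up to 0.158, and in FPKM the estimate was 0.18. The paralog moved the other way. Csf2rb2 had 101, 89.4, 93.2 and 93.4 estimated counts in the control libraries and 161, 192, 141 and 181 in the tranilast libraries, with no overlap and a log2 fold change of 0.89 (edgeR, SE 0.117, adjusted p = 3.6e-06). Csf2rb2 thus made up 13.5 to 17.3% of the pair in the control and 25.8 to 30.6% in the tranilast libraries (exact two-sided permutation test, p = 0.0286, the smallest that 4 against 4 allows). The sum of the pair was 41.4 ± 3.25 scaled CPM in control and 42.4 ± 3.98 in tranilast libraries (SD, n = 4 a group). On the log2 scale the sums differed by 0.03 (exact two-sided permutation test, p = 0.714). Shares and sums were examined after the values of both genes were known, and how the authors' counting divided shared reads was not tested.

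**Figure D4:**
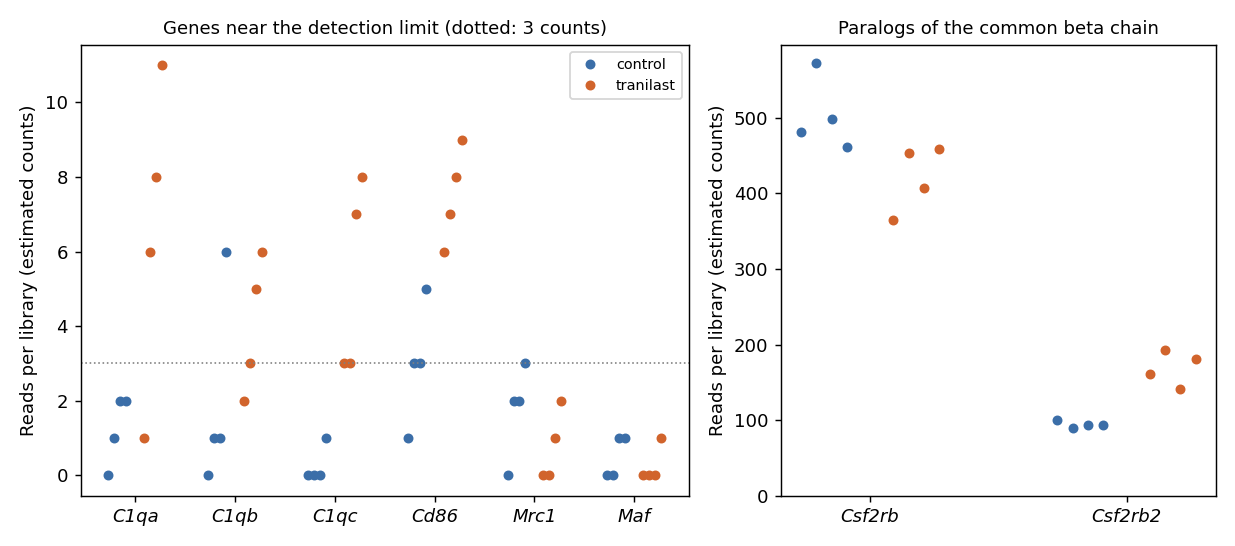
Estimated counts per library (vertical axes) of 6 genes near the detection limit, left, and of Csf2rb and its paralog Csf2rb2, right, in control (blue) and tranilast (orange) libraries. On the left, 21 of the 22 reads of C1qc lie in the tranilast libraries while Mrc1 and Maf stay at or below the dotted line of 3 counts; on the right, Csf2rb2 is at 89.4 to 101 counts in control and 141 to 192 in tranilast libraries.

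Ligands and other receptors of the colony-stimulating factor and cytokine families were also examined. At most 3 counts were found in every library for 6 of these genes, against 9345 of all 22063. Of 15 genes, 8 were tested, 4 were called higher and 2 lower, the same under each scaling. With TMM, 28.2% of all tested genes were called higher and 28.8% lower. Besides Csf2rb2, the G-CSF receptor gene Csf3r rose (log2 0.67, from 1.48 to 2.49 FPKM), as did Il4ra (log2 0.62) and Il10rb (log2 0.53, from 21.2 to 33.2 FPKM). Il10ra, the ligand-binding chain for IL-10, fell from 12.04 to 8.20 FPKM (log2 -0.67), and Ifngr2, a chain of the interferon-gamma receptor, fell from 32.3 to 27.2 FPKM (log2 -0.41). The adjusted p of these 6 genes was at most 0.0183 under each of the 5 scalings. Il3ra and Il5ra were at 0 in all 8 libraries, Il34 and Kit reached at most 1 count, Csf3 2, Flt3 3 and Csf2 4.

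The pan-macrophage and adhesion markers divided by gene: of the 9 tested, Adgre1 and Mpeg1 were called higher, 6 were called lower and Aif1 was not called. Over all tested genes, 28.2% were called higher and 28.8% lower with TMM. By library size alone 2 of the 9 were called higher and 2 lower, against 4613 and 1893 of all 10770 tested genes. In FPKM (plus 0.1) 2 were higher and 1 lower, against 3959 and 1663. Adgre1 had scaled CPM of 47.8, 46.1, 45.6 and 50.7 in the control libraries and 56.7, 55.4, 55.1 and 52.3 in the tranilast libraries. The groups did not overlap, and the log2 fold change was 0.21 (edgeR, SE 0.0505, adjusted p = 0.00205). In FPKM the values were 16.8, 19.6, 14.6 and 18.7 in the control libraries and 26.3, 17.9, 24.1 and 22.2 in the tranilast libraries, which overlap because tranilast replicate 2 lay within the control range. Mpeg1, the gene of perforin-2, a pore-forming protein of phagocytes, had scaled CPM of 347, 390.3, 366 and 349 in the control libraries and 435, 412, 402 and 419.8 in the tranilast libraries. No libraries overlapped and the log2 fold change was 0.20 (edgeR, SE 0.0361, adjusted p = 0.00012).

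Both chains of the integrin CR3 were called lower. Itgam, encoding CD11b, had scaled CPM of 437, 465, 443 and 432 in the control libraries and 388, 377, 358 and 345 in the tranilast libraries. The groups were separate, with a log2 fold change of -0.28 (edgeR, SE 0.0353, adjusted p = 2.8e-06), and Itgam shares exon sequence with the annotated gene Gm49368 on its own strand. Itgb2, the CD18 chain of the leukocyte integrins, went from 315 ± 9.72 to 286 ± 11.9 scaled CPM (SD, n = 4 a group), a log2 fold change of -0.14 (edgeR, SE 0.0339, adjusted p = 0.00219) that was not called by library size alone (-0.02).

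The remaining 5 markers had log2 fold changes between -0.21 and -0.07. Ptprc, the gene of the pan-leukocyte phosphatase CD45, went from 283 ± 12.8 to 245 ± 4.27 scaled CPM (SD, n = 4 a group). It differed by -0.21 on the log2 scale (edgeR, SE 0.0337, adjusted p = 4.5e-05), and the estimate was 0.03 in FPKM. Lyz2 counts were 61110, 68975, 66333 and 63895 in the control libraries and 59908, 58607, 51267 and 59656 in the tranilast libraries. Their scaled CPM did not overlap, at a log2 fold change of -0.13 (edgeR, SE 0.0293, adjusted p = 0.00102), but by library size alone the estimate was -0.01 and not called. Its paralog Lyz1 made up 2.46 to 2.66% of the Lyz1 and Lyz2 counts in control and 2.19 to 2.38% in tranilast libraries, and the sum of the pair differed by -0.13 on the log2 scale. Lgals3 went from 830.1 ± 6.93 to 769 ± 30.4 scaled CPM and Cd14 from 1430.0 ± 50.5 to 1364 ± 29.8 (SD, n = 4 a group), with no overlap for either gene. Lgals3 differed by -0.11 (edgeR, SE 0.027, adjusted p = 0.00195) and by 0.01 by library size alone. Cd14 differed by -0.07 (edgeR, SE 0.0255, adjusted p = 0.0293) and by 0.05 both by library size alone and in FPKM. Aif1, the gene of IBA1, an actin-binding protein used to stain macrophages and microglia, was low at 25, 20, 17 and 14 counts in the control libraries and 18, 11, 12 and 23 in the tranilast libraries, and its log2 fold change of -0.20 was not called (edgeR, SE 0.317, adjusted p = 0.607).

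Of 13 other integrins and adhesion partners, 11 were tested, 1 was called higher and 6 lower, or 1 and 3 by library size alone. Itga4, the CD49d chain, was the most abundant at 254 FPKM in control and 157 in tranilast libraries, a log2 fold change of -0.82 (edgeR, adjusted p = 1.7e-13). Itga5, the fibronectin receptor chain, went from 37.6 to 25.03 FPKM (log2 -0.70). Itgad was at 0 in all 8 libraries. Among 22 tested genes of other macrophage surface and lysosome proteins, 3 were called higher and 11 lower, or 6 and 6 by library size alone. The largest change there was in Fcgr1, the high-affinity IgG receptor (log2 -1.42, from 53.0 to 22.6 FPKM). Clec7a, the beta-glucan receptor dectin-1, followed (log2 -0.94), at only 15 to 26 counts in control and 7 to 14 in tranilast libraries. It passed the expression filter through the control libraries, where it was higher. Cd33 (log2 0.91) and the scavenger receptor gene Cd36 (log2 -0.76) came next. The lysosomal marker gene Cd68 rose from 433 to 523 FPKM (log2 0.16). These 7 genes were called in the same direction under each of the 5 scalings, which all used the same filtered genes. Over all 10770 tested genes, 3039 were called higher and 3104 lower with TMM, and 4613 and 1893 by library size alone.

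The phagocyte NADPH oxidase joins a membrane heterodimer, gp91phox (Cybb) and p22phox (Cyba), to cytosolic subunits that include p47phox (Ncf1) and p40phox (Ncf4). Of these 4 genes, Cybb was called higher and Cyba and Ncf1 lower, where 28.2% and 28.8% of all tested genes were. Cybb had scaled CPM of 1085, 1086, 1076 and 1054 in the control libraries and 1144, 1130.0, 1155 and 1114 in the tranilast libraries. The groups did not overlap, and the log2 fold change was small at 0.08 (edgeR, SE 0.0215, adjusted p = 0.00433) and 0.20 in FPKM. Cyba had scaled CPM of 169, 186, 176 and 172 in the control libraries and 156, 154, 152 and 152 in the tranilast libraries. Its groups were also separate, with a log2 fold change of -0.19 (edgeR, SE 0.036, adjusted p = 0.00017), yet by library size alone it was -0.08 (edgeR, adjusted p = 0.0676). Ncf1 differed by -0.12 on the log2 scale (edgeR, SE 0.0254, adjusted p = 0.00068) and by -0.00146 by library size alone. Ncf4 went from 109.9 ± 2.54 to 105 ± 2.56 scaled CPM (SD, n = 4 a group) with overlapping groups. It was not called at -0.06 (edgeR, SE 0.0372, adjusted p = 0.146), and its estimate was 0.05 by library size alone. In FPKM the 2 membrane subunits were close in level, at 217 ± 2.85 to 249 ± 3.45 for Cybb and 228 ± 9.37 to 216 ± 2.43 for Cyba, control to tranilast (SD, n = 4 a group).

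Other genes of the oxidase family were measured as well. Rac1, a small GTPase gene, fell from 135 to 124 FPKM (log2 -0.26). Rac2, the small GTPase of the phagocyte oxidase, differed by -0.21 with TMM but by 0.20 on the FPKM scale. Cybc1, a chaperone of the membrane heterodimer, fell from 27.6 to 22.5 FPKM (log2 -0.40), and Noxo1 rose from 0.464 to 0.973 FPKM (log2 0.95). Rac1, Cybc1 and Noxo1 were called in the same direction under each of the 5 scalings. Nox3, Duox1, Duox2 and Noxa1 were at 0, Nox4 had at most 1 count and Nox1 at most 2.07 estimated counts.

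Of the 3 monocyte markers, both that were tested were called lower, where 28.8% of all tested genes were. Cx3cr1, the fractalkine receptor gene of patrolling monocytes and of many resident macrophages, had scaled CPM of 505, 496, 509 and 523 in the control libraries and 438, 418, 426 and 426 in the tranilast libraries. The groups did not overlap, and the log2 fold change was -0.25 (edgeR, SE 0.0265, adjusted p = 2.4e-07). Ccr2 (chr9:124101950-124113557 in GRCm38, plus strand), the receptor for CCL2 by which inflammatory monocytes leave the marrow, was far lower in level, at 70, 63, 74 and 75 counts in the control libraries and 48, 26, 37 and 41 in the tranilast libraries. Its FPKM means went from 1.43 ± 0.092 to 0.884 ± 0.188 (SD, n = 4 a group), and the log2 fold change was -0.84 (edgeR, SE 0.19, adjusted p = 0.00107), with no overlap. Ly6c2, the surface antigen of inflammatory monocytes, had 2, 1, 0 and 0 counts in the control libraries and 0, 0, 0 and 0 in the tranilast libraries. Its paralog Ly6c1, with which 20.7% of the 75-base words of Ly6c2 are shared, had 0 to 3 counts, so neither gene rose above 3 counts in a library.

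Of 15 other monocyte genes, 8 had at most 3 counts in every library and 4 were tested. Over all 22063 genes, 9345 had at most 3 counts and 10770 were tested. Chil3 and Cd209a were at 0. Among the tested genes, Nr4a1, a factor of patrolling monocytes, rose from 2.09 to 3.18 FPKM (log2 0.50). Spn, the CD43 gene, fell from 10.2 to 8.99 FPKM (log2 -0.29). Vcan, at 2 to 10 counts in control and 12 to 15 in tranilast libraries, was called higher (log2 1.06), though not on the FPKM scale. It passed the expression filter through the tranilast libraries, where it was higher, which limits this call.

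No Kupffer cell marker among the 37 was above 2 counts in any library. Clec4f, Vsig4 and Timd4 had 0 counts in all 8 libraries, and Marco, a scavenger receptor of Kupffer and marginal zone macrophages, had 2 counts in control replicate 3 and 0 elsewhere. Of a wider list of 15 Kupffer cell genes, 6 had at most 3 counts and 10 at most 10 counts in every library, with C6 at 0. Over all 22063 genes, 9345 had at most 3 counts and 10828 at most 10. The wider list is not confined to genes particular to Kupffer cells, and its Cdh5 and Lyve1 are also on the liver endothelial list. Of its 4 tested genes, 2 were called higher, 1 lower and 1 was not called. Among all tested genes, 28.2% were called higher and 28.8% lower. Slc40a1, the iron exporter ferroportin, rose from 1.25 to 6.56 FPKM (log2 2.28, edgeR, SE 0.114, adjusted p = 9.9e-12). Hmox1, the haem-degrading enzyme, rose from 79.9 to 141 FPKM (log2 0.71), and Dmpk fell from 51.2 to 40.2 FPKM (log2 -0.45).

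Siglec1 showed the largest change among the 25 tested genes. It lies at chr2:131069220-131086765 in GRCm38 on the minus strand and encodes CD169, a sialic acid-binding receptor of lymph node, spleen and interferon-exposed macrophages. Its counts were 596, 781, 721 and 463 in the control libraries and 313, 278, 297 and 292 in the tranilast libraries, and its scaled CPM were 42.4, 54.3, 48.2 and 32.3 in the control libraries and 22.2, 20.1, 23.7 and 19.1 in the tranilast libraries. The control libraries were widely spread, yet the lowest of them lay above the highest tranilast library. The log2 fold change was -1.06 (edgeR, SE 0.119, adjusted p = 5.3e-07), and without any single library it ranged from -1.19 to -0.95. Mean FPKM went from 6.76 ± 1.497 to 3.64 ± 0.429 (SD, n = 4 a group). A further pair of scavenger and lectin receptors of tissue macrophages was scarcely detected: Cd163, the haemoglobin-haptoglobin receptor, had 0 counts in all libraries, and Mrc1, the mannose receptor CD206, had 2, 3, 2 and 0 counts in the control libraries and 2, 1, 0 and 0 in the tranilast libraries.

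The 3 chains of complement C1q are encoded side by side (chr4:136880129-136898803 in GRCm38, minus strand) and are abundant in most resident macrophages. Here they were near the detection limit. C1qa had 1, 0, 2 and 2 counts in the control libraries and 1, 6, 8 and 11 in the tranilast libraries. C1qb had 0, 1, 6 and 1 in the control libraries and 3, 2, 5 and 6 in the tranilast libraries, and C1qc had 0, 0, 0 and 1 in the control libraries and 3, 3, 7 and 8 in the tranilast libraries. Only C1qc separated the groups, and each chain had more counts in the tranilast than in the control libraries when summed. Against depth, the summed counts of C1qc were 23.6 times higher with tranilast (21 against 1, 95% counting interval 3.79 to 975.3). For C1qa the ratio was 5.84 (26 against 5, 2.21 to 19.5) and for C1qb 2.25 (16 against 8, 0.907 to 6.06). The exact two-sided permutation tests over libraries gave p = 0.0286 for C1qc, 0.114 for C1qa and 0.2 for C1qb. When no filter was applied, C1qc (edgeR, adjusted p = 0.00307) and C1qa (edgeR, adjusted p = 0.0235) were called higher and C1qb (edgeR, adjusted p = 0.377) was not. All 3 remained under 1 FPKM in every library.

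Cd86, a costimulatory ligand for T cells, lay in the same range. Its counts were 3, 3, 1 and 5 in the control libraries and 7, 8, 6 and 9 in the tranilast libraries. The groups did not overlap, and the summed counts were 2.81 times higher with tranilast relative to depth (30 against 12, 95% counting interval 1.396 to 6.02, exact two-sided permutation test p = 0.0286). Without a filter it was not called (edgeR, adjusted p = 0.125). These intervals cover counting error only.

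Genes that mark macrophages in fatty or scarred liver, in brain, in the peritoneum or in lung were also examined. Of 9 tested genes of lipid-associated and scar macrophages, 2 were called higher and 4 lower, against 28.2% and 28.8% of all tested genes. By library size alone 2 and 2 were called, against 4613 and 1893 of the 10770 tested genes. Spp1, the osteopontin gene, was the most abundant at 2862 FPKM in control and 2399 in tranilast libraries (log2 -0.37). Lpl, lipoprotein lipase, fell from 300.3 to 144 FPKM (log2 -1.17, edgeR, adjusted p = 1.7e-15), while Gpnmb rose from 20.2 to 32.8 FPKM (log2 0.56) and the cathepsin D gene Ctsd from 447 to 652 FPKM (log2 0.43). Of 11 genes of microglia, peritoneal and alveolar macrophages, 5 had at most 3 counts and 8 at most 10 in every library. The numbers over all 22063 genes were 9345 and 10828. Gata6, Siglecf and Chil3 were at 0.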

How the data were processed

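The files held 1 table of the whole series with 8 libraries, 4 control and 4 tranilast, grouped by the titles GEO gives. For each library the authors deposited estimated counts per gene (not normalized, 92.7 to 93.9% of values whole, zeros included) and FPKM, which the authors scaled per kilobase of transcript and by library size. The aligner, the counting tool, the genome build and the strand setting are not given in the sources used here. The study's methods describe poly-A selected paired-end libraries and name another sequencer (HiSeq X-ten) than the labels (Novaseq6000). Annotation columns on pathways and ontologies were not used.

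Estimated counts were rounded and tested with edgeR 4.0.16 (filterByExpr by group, TMM factors, glmQLFit and glmQLFTest, R 4.3.3) without covariates. P-values were adjusted by Benjamini and Hochberg over 10770 genes and called under 0.05. Standard errors were taken as the absolute log2 fold change divided by the square root of the F statistic. Scaled CPM are counts relative to the TMM-scaled library size. For single values, a two-sided exact permutation test was run on log2(scaled CPM + 0.1), which cannot go below p = 0.0286 with 4 against 4. Ratios of summed counts carry exact 95% counting intervals. Alternatives were DESeq2 1.42.0, limma-voom and limma on log2(FPKM + 1) or log2(FPKM + 0.1) (limma 3.58.1), other scaling factors and filters, thinning, a replicate block and leaving out each library. On the FPKM scale the pseudocount understates changes of low genes. The edgeR, DESeq2 and limma-voom code was tested on simulated data.

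Library totals are in the report, and depth limits a gene at 0 to 3 counts. Within groups, libraries differed by 2.54 to 5.47 times the sampling noise (chi-square per degree of freedom), so none was a duplicate. Gene IDs were located in GENCODE on GRCm38 (21973 of 22063 matched) and promoters came from RefSeq on GRCm38.p6. The 37 genes, the related lists and the motifs were chosen with earlier results of these data known. All 37 genes are named. From each related list, up to 4 called genes with the largest change, up to 3 with the highest FPKM and genes at 0 are named, besides paralogs that share reads, except that some genes the rule would name are not reported here. A gene in several lists was counted in each, and the list symbol Emr4 matched no row. Genes named for their low counts (Spic, Il34, Kit, Csf2, Csf3, Flt3, Nox1 and Nox4) fall outside that rule and were chosen after their values were seen.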

Additional observations from a re-analysis of the deposited data

Results flagged for a closer look

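In the control group, replicate 2 had the highest level of Irf8, at 111.3 scaled CPM, while the other 3 control libraries lay between 106.2 and 106.6 scaled CPM. The gap to its nearest neighbour took 0.923 of the range of the group, which is above Dixon's 95% critical value for 4 samples. This was the 1 such value among 50 checks, of 25 tested genes in 2 groups, and chance alone gives about 1 in 20. All 4 tranilast libraries lay below the 4 control libraries for Irf8, and leaving out any library kept its call.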

How the results depend on the processing

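The number of members called lower depended on scaling: 18 with TMM, 11 with upper-quartile factors, 9 by library size alone and 8 on log2 FPKM with either pseudocount, while 4 were called higher in each. Against TMM, the median shift over all tested genes under these settings was upward, by 0.07, 0.12, 0.11 and 0.11 on the log2 scale. Estimates that turned positive by library size alone were Fli1 (0.00959), Cd14 (0.0483), Lgals3 (0.00619) and Ncf4 (0.0518). With upper-quartile factors Ncf4 was 0.00240. With FPKM plus 1 or plus 0.1, Csf1r was 0.00711 in both, Csf2rb 0.17 and 0.18, Cd14 0.0484 in both, Ptprc 0.0295 and 0.0299, and Ncf4 0.0475 and 0.0480. None of these positive estimates was called (adjusted p of 0.0936 or more, edgeR or limma).

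With a minimum absolute log2 fold change of 1.5 added, 120 genes were called, 1.11% of those tested, with 0 members higher and 0 lower. Leaving out 1 library gave 5694 to 5909 genes called, 4 members higher in each and 15 to 18 lower. Fli1 was called without control replicate 3 and without tranilast replicate 1 (adjusted p down to 0.0421, edgeR), and Cd14 was not called without control replicate 2 or 3 or tranilast replicate 3 or 4 (up to 0.117, edgeR). DESeq2, limma-voom, RLE factors and a minimum of 10 counts in every library gave 4 higher and 18 lower, and thinning to 12053036 counts gave 4 and 17, without Csf2ra. Without a filter, 6 were higher, adding C1qa and C1qc. Pairing by replicate number was not assumed. Within-group deviations of same-numbered libraries correlated at -0.00774, -0.336, 0.165 and 0.447 over 2000 genes, and those of differently numbered ones at -0.595 to 0.504. With 4 libraries a group, these values cannot exclude a pairing. With the replicate block 6009 genes were called, and 4 members were higher and 18 lower. The macrophage markers took 0.925% of counts and 1.01% of FPKM at the median. Of the members, 8 had at most 3 counts and 11 at most 10 counts in every library. Depth limits the 12 untested genes, and 4 libraries a group limit every p.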
